A study of Schmidtea mediterranea with 6 samples.

Results

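Of the 36035 gene IDs measured in whole Schmidtea mediterranea, 127 were abundant and kept nearly the same relative level in animals sampled 3 days after a lethal dose of irradiation as in untreated animals. They were chosen from the authors' deposited TPM (each transcript's share of the pool, corrected for transcript length). A member had a mean of at least 100 TPM in unirradiated libraries, a ratio of mean TPM, irradiated over unirradiated, within 5% of 1 (from 0.95 upward), and a coefficient of variation (CV, the SD over the mean) under 0.10 over all 6 libraries. These 3 measures chose the members, so the steadiness described here is a description and was not tested. The ratio and CV limits therefore fix the direction and size of what follows, except where libraries outside the choice or a property outside the rule is named. Those can be tied to the limits as well, as stated there.

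Schmidtea mediterranea is a freshwater flatworm that replaces and regenerates its tissues from dividing stem cells called neoblasts, and lethal irradiation is known to remove these cells. The series holds 3 libraries of wild-type whole animals without treatment, labelled day 0, and 3 libraries of wild-type whole animals after lethal irradiation, labelled day 3. The labels give neither the radiation dose nor the strain nor the number of animals behind each library, and irradiation and the 3 days between the groups cannot be told apart. Nothing in the labels ties replicates to separate animals, so the spread between libraries may be technical. Library totals ran from 12635699 to 20914353 estimated counts, and replicate 3 was the deepest library in both groups.

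Transcripts of constant level are used as reference genes: in quantitative PCR the amount of a gene of interest is read relative to one or several of them. A sound reference is abundant, varies little between animals, and does not respond to the treatment. In an irradiated planarian the loss of stem cells and their daughters is known to change the cell makeup of the body. In whole-body RNA, fewer cells of a type and less RNA per cell cannot be told apart, and a constant TPM is a constant share of the pool, not a constant amount per animal. The files do not pair the SMED30 IDs with gene names, so the roles of the members are not given, and the tissue label could not be compared with marker genes.

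Steady transcripts were a small part of the abundant transcriptome. Of 1225 gene IDs with at least 100 TPM in unirradiated animals, 127 (10.4%) were members, 482 had a ratio below 0.95 and 604 had a ratio more than 5% above 1. A further 12 lay inside the ratio window and failed the limit on CV. The median ratio of all 1225 was 1.046, whereas the median of the members was 1.01, with 78 members above a ratio of 1 and 49 below. A ratio within 2% of 1 was found for 47 members.

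**Figure D1:**
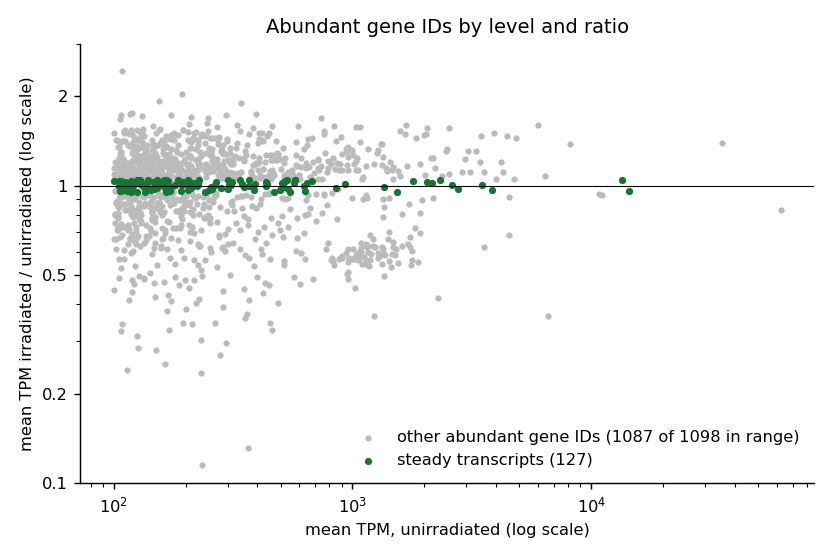
Each point is one gene ID of at least 100 TPM in unirradiated animals, with its mean unirradiated TPM on the horizontal log axis and its ratio of mean TPM, irradiated over unirradiated, on the vertical log axis. The 127 steady transcripts (green) form a band around 1, and 11 of the 1098 other IDs (grey) lie below the axis limit of 0.1 and are not drawn.

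The members covered a wide range of levels. Their mean TPM over all libraries ran from 103 to 14136, a span of 137-fold, and the median was 204. Of 570 IDs with 100 to 200 TPM in unirradiated animals, 10.9% were members. The share was 10.3% of 359 IDs between 200 and 500 TPM and 11.9% of 134 IDs between 500 and 1000 TPM. It was 7.41% of the 162 IDs with at least 1000 TPM, where 12 members stood beside 85 IDs with a ratio below 0.95 and 65 with a ratio more than 5% above 1.

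The most abundant member, SMED30007704, was the 3rd of all gene IDs by mean TPM. It held 13693, 14727 and 14897 TPM in unirradiated replicates 1 to 3 and 13743, 14351 and 13406 TPM in irradiated replicates 1 to 3. The groups overlapped, and the means were 14439 ± 652 and 13833 ± 479 TPM (SD, n = 3). SMED30010350, next in the table, held 12676, 13738 and 14039.8 TPM without irradiation and 14273, 13156 and 14902 TPM after it. Again the groups overlapped, with means of 13484 ± 716 and 14110.3 ± 884 TPM (SD, n = 3). The estimated counts of both IDs were not whole numbers in any library, as happens where reads are divided between similar genes, so the level of each is uncertain to that degree. The 2 IDs differed in this. The counts of SMED30007704 lay close to whole numbers, such as 298407.995 and 541121.967. Those of SMED30010350 did not in several libraries, such as 43444.71 and 75829.50.

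Below this pair the next member averaged 3774 TPM, and the spread between libraries differed from member to member. SMED30029899 held 3423, 3437 and 3569 TPM in unirradiated libraries and 3494, 3466 and 3520.3 TPM in irradiated libraries, a CV of 1.57%. SMED30007637, of similar level, held 3816, 3526 and 4149 TPM without irradiation and 3369.5, 4133 and 3648 TPM after it, a CV of 8.49%. The irradiated values of SMED30029899 thus lay within the range of its unirradiated ones, whereas the 3369.5 TPM of SMED30007637 lay below its unirradiated range. In both IDs, libraries of one group differed by more than the means of the groups. Both had whole-number counts in every library, with at least 50310 and 6306 estimated counts per library.

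SMED30013107 held 2557, 2565 and 2723 TPM in unirradiated animals and 2615, 2689 and 2599 TPM in irradiated animals, with a CV of 2.57%. SMED30021105 was the most even member of its level, with 2135, 2139.9 and 2180.5 TPM before and 2183, 2191 and 2237 TPM after, a CV of 1.72%. Its irradiated libraries were nevertheless all above its unirradiated libraries on TPM, by 0.03 ± 0.01 on the log2 scale (SE, from the spread of log2 TPM between libraries, n = 3). In the edgeR fit described below, which scales libraries otherwise, its log2 fold change was -0.04, so the direction depended on the scaling. The other members among the 10 most abundant were SMED30003372, SMED30010977, SMED30015498 and SMED30022078, with mean TPM of 2721, 2386, 2092 and 1821. Their CV ran from 5.37% to 8.63%, and the groups overlapped in each.

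**Figure D2:**
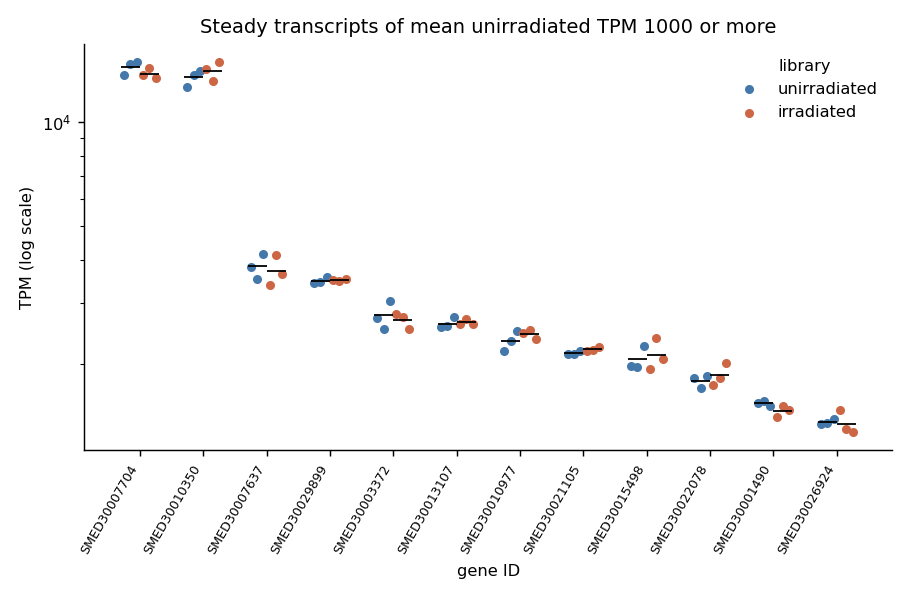
TPM on a log axis for the 12 members with a mean of at least 1000 TPM in unirradiated animals, one point per library (blue unirradiated, orange irradiated), with a black line at each group mean (n = 3). The points of the groups overlap in 10 of the 12 IDs; in SMED30021105 the irradiated points lie above, and in SMED30001490 below.

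The smallest CV belonged to SMED30034045. It held 162, 164 and 164 TPM in unirradiated libraries and 159, 161 and 163 TPM in irradiated libraries, a CV of 1.19%. This was less than the 1.92% that counting error alone would give at its 2283 to 3945 estimated counts per library, so its spread cannot be told from counting error. SMED30017430 followed with a CV of 1.36%, from 369.9, 377 and 363 TPM before and 369, 371 and 364 TPM after irradiation, but its counts were whole in 0 of 6 libraries. SMED30012219 held 341, 346 and 352 TPM before and 346, 352 and 355 TPM after, a CV of 1.49%. SMED30016492, near the lower limit of the rule, held 119, 119 and 122 TPM before and 117, 123 and 121 TPM after, a CV of 1.75%.

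A ratio near 1 and a small CV were not the same thing. SMED30022535 and SMED30017717 had a log2 difference of 0.00 with a CV of 3.31% and 1.96%. SMED30003470 also had a log2 difference of 0.00, from 189.9, 220.5 and 211 TPM before and 198, 219.6 and 204 TPM after irradiation, yet its CV was 5.90%. In SMED30030581 the group means were 105.5 ± 3.1 and 105.5 ± 8.8 TPM (SD, n = 3), and the values of 97.3, 104 and 115 TPM in irradiated libraries reached both below and above the unirradiated range of 103 to 109 TPM.

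Next to the limits of the rule, members and other IDs had similar values. On the lower ratio limit, SMED30001490 was inside at a ratio of 0.951 and SMED30015934 outside at 0.948. On the upper limit, SMED30010977 was inside at 1.048 and SMED30003431 outside at 1.0502. SMED30003175 was inside the CV limit at 9.80% and SMED30020821 outside at 10.2%, and SMED30008640 was inside the level limit at 100.7 TPM and SMED30008163 outside at 99.3 TPM.

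In the members the libraries of the groups mostly overlapped. They did not for 6 of 127 members (4.72%), against 74% of all 1225 abundant IDs and 48% of the 20378 genes tested, a contrast that the rule builds in. The 6 are named because their number is small, after their values were seen. SMED30001490, SMED30005536, SMED30015194 and SMED30002355 were lower in all irradiated libraries, with ratios from 0.951 to 0.959. SMED30021105 and SMED30013023 were higher in all irradiated libraries, with ratios of 1.024 and 1.048. These directions are those of TPM. In the edgeR fit described below, the log2 fold change was -0.04 for SMED30021105 and 0.005 for SMED30013023. It was -0.13 for each of the IDs that were lower. SMED30001490 held 1536, 1562 and 1511 TPM before and 1405, 1506 and 1471 TPM after irradiation. SMED30013023 held 346, 331 and 338 TPM before and 352, 357 and 354 TPM after, with a whole-number count in 1 of 6 libraries. Its other counts were close to whole numbers, such as 3956.996 and 6494.99.

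The spread between replicates was read within each group. The limit on the CV over all libraries restricts this spread in the members too, so their comparison with other IDs is partly built in. The median CV within the unirradiated group was 3.997% for the members and 4.19% for the 1098 other abundant IDs, and within the irradiated group it was 3.57% and 5.09%. The CV over all libraries, which the rule limits, had a median of 3.99% in the members and 14.0% in the other IDs. Counting error alone would give the members a median CV of 1.65%, and 44 of 127 had a CV below 2 times that expected from their own counts. The same held for 38 of the 1098 other abundant IDs, a contrast that the limit on CV favours. The counts behind a member were large, with a median of 3104 in the library where the member had fewest, although SMED30022792 had only 102 to 189 estimated counts per library.

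The libraries shared part of the remaining deviation. Replicate 3 was the highest of its group for 79 of 127 members (62.2%) in unirradiated animals and for 63 (49.6%) in irradiated animals, while 44.5% and 41.6% of the other abundant IDs had their highest value there. Replicate 3 was also the deepest library of both groups, and the part of depth in this was not tested. Of the members, 88.2% lay within 5% of their own mean in unirradiated replicate 1 and 68.5% did so in unirradiated replicate 3. The first principal component of log2 TPM over the members carried 36.7% of their variance. It placed unirradiated replicate 3 at 0.63 and unirradiated replicate 2 at -0.52, with irradiated replicates 1 to 3 at -0.43, 0.22 and 0.28. It did not separate the groups, which the limit on the ratio of group means makes likely, so nothing is read from that.

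**Figure D3:**
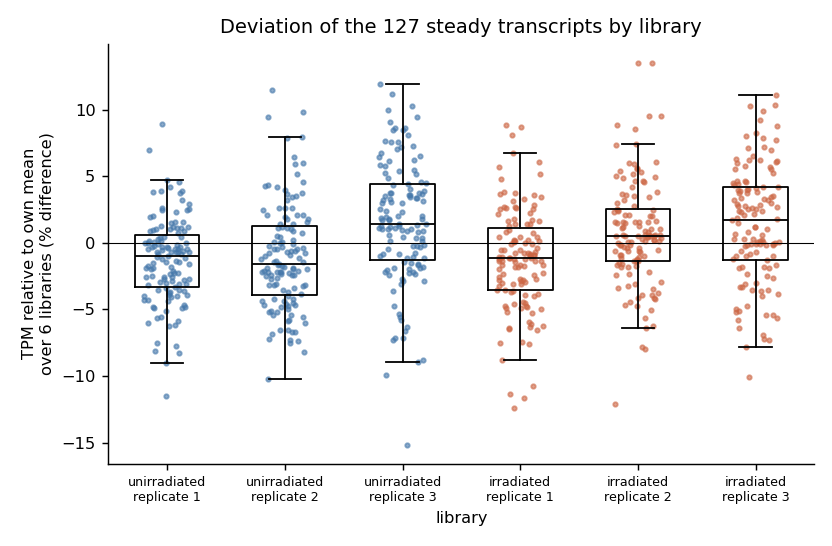
For each of the 6 libraries, the points give the TPM of the 127 steady transcripts as a percent difference from each transcript's own mean over 6 libraries; boxes show the quartiles and median, and whiskers the farthest value within 1.5 box lengths. Medians are highest in replicate 3 of each group, and the lowest point is SMED30024429 in unirradiated replicate 3, at 0.849 of its mean.

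The steady transcripts were longer than other abundant transcripts. Effective length was read from the ratio of estimated count to TPM and is given relative to the median of the 1225 abundant IDs. The median was 1.62 for the members and 0.937 for the other IDs, with quartiles at 0.782 and 2.60 for the members and at 0.476 and 1.84 for the others. When the 1225 IDs were split by length into 3 classes of nearly equal size, members were 5.87% of the shortest class, 8.35% of the middle class and 16.9% of the longest class. Both limits of the rule moved with length: 7.58%, 8.85% and 17.6% of the classes lay inside the ratio window, and 22.0%, 38.8% and 57.0% had a CV under 10%. The median ratio itself rose with length, at 0.970, 1.022 and 1.073 from the shortest to the longest class. The median of the longest class thus lay outside the ratio window. The median counting error also differed, at 3.41%, 2.06% and 1.37% from the shortest to the longest class, and its part in the length of the members was not tested. A smaller counting error makes the CV limit easier to meet. Length is therefore not independent of the rule, and the greater length of the members may be partly built in.

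The 2 longest members varied together, a pattern noted after their values were seen. SMED30012378, with a relative length of 9.91, held 136, 148 and 153 TPM in unirradiated replicates 1 to 3 and 161, 152 and 136 TPM in irradiated replicates 1 to 3. SMED30008640, with a relative length of 8.29, held 91.0, 102 and 109 TPM before and 111, 108 and 95.4 TPM after irradiation. In both, irradiated replicate 1 was highest, and unirradiated replicate 1 and irradiated replicate 3 were the lowest pair. Counting error alone would give a CV of 0.809% and 1.06%, whereas the CV was 6.66% and 7.92%. The next member by length, SMED30002454 (5.15), shared the low pair, at 145 TPM in unirradiated replicate 1 and 143 TPM in irradiated replicate 3, but not the high value. Its irradiated replicate 1 held 149.7 TPM, below unirradiated replicates 2 and 3 (154 and 158 TPM) and irradiated replicate 2 (156 TPM). Over the 43 longest members, irradiated replicate 1 was not high either, with a median deviation from the group mean of -0.01 on the log2 scale. By deviation from the group mean, irradiated replicate 1 was the highest, and unirradiated replicate 1 and irradiated replicate 3 the lowest, in 37 other abundant IDs with a relative length of at least 5: their median deviation from the group mean was -0.05, 0.03 and 0.03 on the log2 scale in unirradiated replicates 1 to 3 and 0.07, 0.03 and -0.09 in irradiated replicates 1 to 3. In 301 other abundant IDs with a relative length under 0.5, the medians lay between -0.02 and 0.01. Among the shortest members, SMED30022792 and SMED30031902 had relative lengths of 0.084 and 0.143 and a CV of 6.01% and 7.88%.

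Libraries left out of a repeated choice gave ratios that this repeated choice did not use. The libraries left out had, however, taken part in the full choice of members, and replicates may be technical. The ratios therefore show how far values repeated between libraries, and whether they repeat between animals was not tested. Members were chosen again without 1 replicate number of each group, and the ratio of the 2 libraries left out was then read. Without replicate 1, 126 IDs were chosen, and in the libraries left out 47.6% of them had a ratio within 5% of 1 and 72.2% within 10%. For all 1222 abundant IDs the shares were 14.1% and 26.2%. Without replicate 2, 143 IDs were chosen, with 42.7% within 5% and 72.0% within 10%, against 12.8% and 26.0% of all abundant IDs. Without replicate 3, 147 IDs were chosen, with 36.1% within 5% and 61.9% within 10%, against 12.5% and 25.1%.

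In each case the chosen IDs lay closer to 1 than abundant IDs in general, and at most 47.6% kept to the 5% window in the pair of libraries left out. Most abundant IDs lay outside the ratio window over all 6 libraries, so a list chosen inside it was likely to lie closer to 1. Nothing is read from that contrast. The median distance from a ratio of 1 was 5.34%, 6.53% and 8.11% for the chosen IDs without replicates 1, 2 and 3, and 21.1%, 21.2% and 19.8% for all abundant IDs. These are ratios of 1 library to 1 library, which vary more than ratios of means, and no test was made. Of the IDs chosen without replicate 3, 67.3% were among the 127, and they held 78.0% of the 127. The choice with 1 single library left out returned 120 to 143 IDs, which held 78.0% to 86.6% of the 127.

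**Figure D4:**
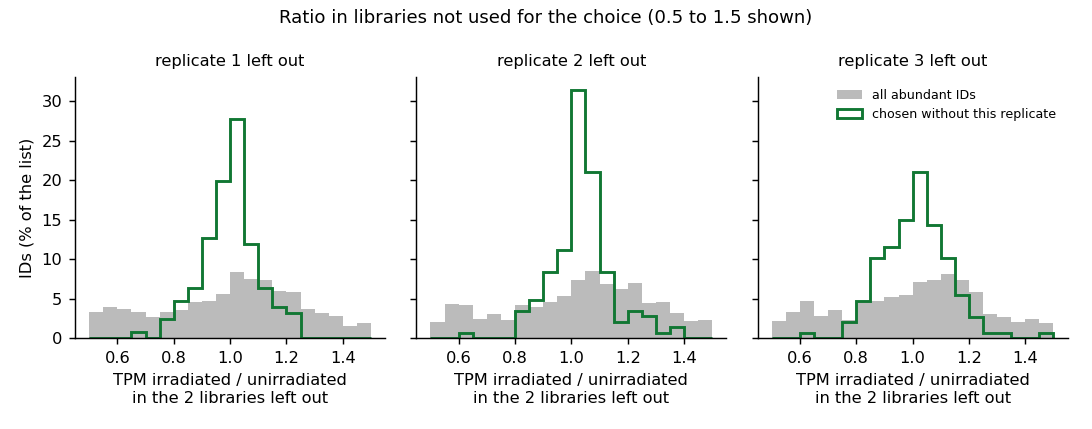
Histograms of the ratio of TPM, irradiated over unirradiated, in the 2 libraries of the replicate number left out, in steps of 0.05, as a percent of each list; values outside 0.5 to 1.5 are not drawn. The green outline shows IDs chosen by the rule without those libraries (126, 143 and 147 IDs), and the grey area all abundant IDs; the green lists are narrower and centred near 1.

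Whether the members were level with irradiation depended on how libraries were scaled. On TPM the ratios of the 127 had a median of 1.01. On CPM (counts scaled to the library total) the median was 0.992, and with TMM scaling, which assumes that most genes do not change, it was 0.964. With RLE scaling the median was 0.971, and with TPM scaled to the upper quartile it was 1.022. The window of 5% around 1 then held 110 of 127 members by library total, 84 with TMM, 88 with RLE and 107 with the upper quartile. A total of 63 members (49.6%) met the ratio and CV limits under all 5 scalings, with the level limit kept on the deposited TPM throughout.

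**Figure D5:**
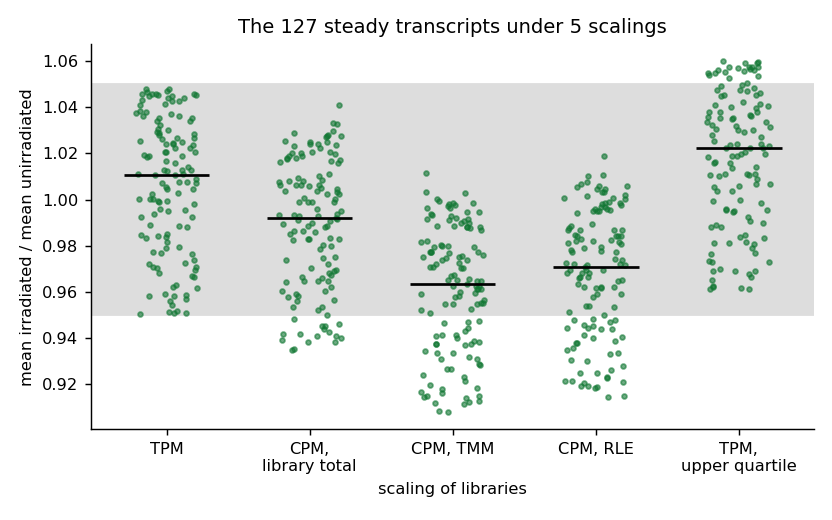
Ratio of the mean of irradiated libraries to the mean of unirradiated libraries for each of the 127 steady transcripts (green points) under 5 scalings of libraries, with the median as a black line and the window of 5% around 1 in grey. All points lie in the window on TPM, which chose them, and the median moves from 0.964 with TMM to 1.022 with the upper quartile.

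The test over all genes gave the members' values in the same contrast as the rule. All 127 passed edgeR's filter on low counts. With edgeR's quasi-likelihood test, TMM scaling and Benjamini-Hochberg adjustment over 20378 genes, 1 member was called at an adjusted p below 0.05, while 35.3% of all genes tested (14.9% higher and 20.4% lower) and 63% of the abundant IDs were called. The rule used this contrast, so nothing is read from that difference. The member called was SMED30007704, with an edgeR log2 fold change of -0.13 (adjusted p = 0.0288), while its log2 TPM differed by -0.06 ± 0.05 (SE, n = 3). It was not called with upper-quartile scaling, library totals, the members as scaling reference, DESeq2 or limma on log2 TPM, nor in edgeR without unirradiated replicate 2, unirradiated replicate 3, irradiated replicate 1 or irradiated replicate 3. Without irradiated replicate 2, SMED30033774 was called as well. Unadjusted p was below 0.05 for 11 members, each with a log2 fold change below 0 in this TMM fit, where 122 of 127 members were below 0. The share of all genes at that unadjusted threshold is not given here, so nothing is read from this number.

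The edgeR log2 fold changes of the members ran from -0.14 to 0.02, and 122 of 127 were below 0. Their median was -0.05, beside 0.01 for all genes tested. With upper-quartile scaling the median of the members was 0.02 and that of all genes 0.08, so the sign of the members' own change turned with the scaling. The members' median lay below that of all genes in each of the 17 settings of the test. The rule used the same contrast, so this is a description. With the members themselves as the scaling reference, a total of 3977 genes were higher and 3619 lower, against 3037 higher and 4154 lower with TMM. Higher genes were 52.4% of the calls when the steady transcripts set the scale, 42.2% with TMM and 53.8% with upper-quartile scaling (4191 higher and 3593 lower).

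The share of the pool that the members held together depended little on the group on TPM, as the rule makes likely. They made up 7.91%, 8.10% and 8.41% of all TPM in unirradiated replicates 1 to 3 and 8.08%, 8.21% and 8.22% in irradiated replicates 1 to 3. The means were 8.14 ± 0.25% and 8.17 ± 0.08% (SD, n = 3). Without SMED30007704 and SMED30010350 the means were 5.35 ± 0.14% and 5.37 ± 0.09%. As a share of estimated counts, which are not corrected for length, the members held 8.53%, 8.62% and 8.82% in unirradiated replicates 1 to 3 and 8.37%, 8.57% and 8.45% in irradiated replicates 1 to 3. The means were 8.66 ± 0.15% and 8.46 ± 0.10% (SD, n = 3), so on counts the irradiated mean was the lower one, and the groups overlapped. As a scaling reference, the geometric mean of TPM over the members was 0.987, 0.989 and 1.01 in unirradiated replicates 1 to 3 and 0.988, 1.01 and 1.01 in irradiated replicates 1 to 3, relative to its mean over the libraries.

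Pairs of members differed in how constant their ratio was. Over 8001 pairs, the SD of the log2 ratio over 6 libraries had a median of 0.08 and ran from 0.013 to 0.25. The most constant pair was SMED30012219 with SMED30021105, at 0.013, and the least constant was SMED30003175 with SMED30024429. The lowest mean pairwise SD was found for SMED30012219, SMED30016492, SMED30029899 and SMED30021105, at 0.059 to 0.061. All 4 had whole-number counts in every library, and together they span levels from 120.1 to 3485 TPM. Whole-number counts in all libraries were found for 109 of 127 members (85.8%), close to the 86.7% of other abundant IDs, while 14 members had a whole-number count in no library. Between the members with the highest and the lowest ratio, the choice of one or the other as a single reference would move every other gene by 0.14 on the log2 scale.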

How the data were processed

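Per the labels' protocols, whole-animal RNA was harvested with TRIGene and sequencing libraries came from a NEBNext kit for Illumina. The authors deposited estimated counts and TPM for the same gene IDs, 1 column per library. The sources used here do not name the aligner, counting program, transcript set or build. Columns were matched to samples by the description label. The members and lists were chosen with earlier results of these data known.

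The rule was applied to the deposited TPM. The counts, rounded to whole numbers, entered edgeR 4.0.16 (R 4.3.3; filterByExpr, minimum count of 10; TMM; quasi-likelihood F test, group only; Benjamini-Hochberg threshold 0.05). DESeq2 1.42.0 and limma 3.58.1 on log2(TPM + 1) and log2(TPM + 0.1) were alternatives. The rule and the edgeR test were run on simulated data with differences set in advance. This checks only that the procedures work as written, and says nothing about IDs near the limits of the rule. Log2 differences between groups have an SE from log2 TPM of the 3 libraries per group. Whole-number counts were read at a tolerance of 1e-06. Named members are the 10 most abundant, the 6 of smallest CV, the 4 of ratio nearest 1, the 2 longest and 2 shortest, the 4 of smallest pairwise SD, up to 4 called, and IDs at the limits. Counting error is the CV that Poisson sampling of the estimated counts would give, and covers counting error only. Library totals ran from 12635699 to 20914353. Within groups, chi-square per degree of freedom ran from 2.35 to 4.69, above sampling noise for every pair. Gene lists by name were not used, since the files hold no names.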

Additional observations from a re-analysis of the deposited data

How the results depend on the processing

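The number of steady transcripts, 127, depended on the limits. It was 296 with a ratio within 10% of 1 and 47 within 2%, and 288, 65 and 12 with a minimum of 50, 200 and 1000 TPM. With the rule on CPM it was 304 by library total, 357 with TMM and 355 with RLE, where 100 CPM admits other genes than 100 TPM; with the minimum kept on TPM, settings chosen after seeing the data, it was 150, 183 and 178. The choices without 1 replicate number of both groups were also added then. Leaving out 1 library gave 120 to 143. One member was called in edgeR, and 0 with upper-quartile scaling, library totals, the members as reference, DESeq2 and both limma tests; leaving out 1 library gave 0 to 2. The median log2 fold change of the members, -0.05, was 0.02 with upper-quartile scaling and with limma on log2(TPM + 1) and log2(TPM + 0.1) (0.0157, 0.015 and 0.0151), -0.01 with library totals (-0.0108) and 0.01 with the members as reference (0.00614); leaving out 1 library gave -0.066 to -0.026. The causes of these moves were not tested. The mean summed share of 8.15% of TPM was 4.79% over members with whole-number counts and 8.56% as a share of counts. Genes called higher ran from 2376 to 2812 and genes called lower from 3602 to 3875 when 1 library was left out, within 1.5 times of the values above. With the replicate number as a block, 1 member was called, with 2856 genes higher and 4061 lower overall. Equal numbers did not pair the libraries: their deviations correlated at -0.04, 0.07 and -0.07.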

Other observations

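Among abundant gene IDs, members were scarce in one range of levels, which was chosen after the values were seen. Of 155 IDs with a mean between 800 and 2000 TPM in unirradiated animals, 5 were steady transcripts (3.23%), against 10.4% of all 1225 abundant IDs. The overlapping class of 500 to 1000 TPM held 11.9%, so the scarcity depends on where the range is drawn. Of the 155 IDs, 74 (47.7%) had a ratio of mean TPM, irradiated over unirradiated, between 0.5 and 0.7. Over the rest of the 1223 abundant IDs with a value above 0 in every library, 8.24% had a ratio in that range. No gene names are attached to these IDs in the files.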
